A study of Caenorhabditis elegans with 2 samples.

Results

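Nuclear hormone receptor genes were examined for binding of GEI-8, a Caenorhabditis elegans protein related to NCoR and SMRT, corepressors of vertebrates. The members were the protein-coding genes of the Ensembl WBcel235 annotation whose symbol starts with nhr-, without nhr-10, nhr-68 and nhr-114, together with odr-7, unc-55, fax-1 and sex-1. This rule gave 270 of the 19973 nuclear protein-coding genes. Chromatin immunoprecipitation with sequencing had been done on whole L4 larvae, the last larval stage, in 1 group of 2 biological replicates. Strain OP589 was used, a line with the tm4063 allele of unc-119 and the integrated transgene wgIs589. That transgene holds a rescuing copy of unc-119 and a gei-8 gene fused to TY1, EGFP and 3xFLAG tags, and an antibody against GFP was used. Animals of both sexes were pooled at 48 hours, after synchronisation as starved L1 larvae. Both replicates come from this 1 line, and no untagged strain, mutant or other stage was analysed here. Whole worms were used, so all tissues enter each value and binding in a few cells and weak binding in many cannot be told apart. The labels do not say whether worms also made untagged GEI-8.

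Nuclear receptors are transcription factors with a zinc-finger DNA-binding domain and, in most of them, a ligand-binding domain. In vertebrates, NCoR and SMRT bind several receptors that lack an activating ligand and recruit histone deacetylases. Nematodes carry far more receptor genes than insects or vertebrates, mostly through expansion of a branch related to HNF4, while a small set has clear relatives in other animals. The members were accordingly divided into 13 conserved receptors and an expanded family of 257 genes. The 13 were nhr-6, nhr-8, nhr-23, nhr-25, nhr-41, nhr-48, nhr-67, nhr-85, nhr-91, nhr-111, fax-1, unc-55 and sex-1. All other members were counted as expanded. The binding of GEI-8 at a receptor's gene, which is measured here, is a different thing from the binding of GEI-8 to the receptor protein.

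A gene's window ran from 1000 bp upstream to 200 bp downstream of the 5′ end in the annotation and also took in the gene body. A gene carried a peak when a summit lay in that window. The deposited reproducible list holds 1053 peaks, which are the 1053 strongest of 30000 relaxed peaks called on both replicates together. A relaxed list of 30000 peaks, background included, was also deposited for each replicate. Peaks were ranked in each list by the authors' signal per peak, with rank 1 the strongest. The files hold no reads, so depth is unknown, and all lists were called against the same control alignment. With 1 group there is no comparison over samples, and no test was run: shares are given with exact Clopper-Pearson 95% intervals, which cover counting error of genes only.

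GEI-8 peaks were found at a small number of receptor genes. A reproducible peak lay in the window of 16 of the 270 members, or 5.93% (interval 3.42 to 9.45%), against 3.75% of all protein-coding genes, a share inside that interval. They were nhr-17, nhr-19, nhr-35, nhr-3, nhr-1, nhr-57, nhr-48, nhr-27, nhr-31, nhr-150, nhr-47, nhr-34, nhr-46, nhr-14, nhr-256 and nhr-135, from the strongest to the weakest. The 16 genes had 1 reproducible peak each, and no peak served more than 1 of them. Taking the 1053 strongest peaks of each replicate alone gave 16 members in replicate 1 (5.93%, against 3.82% of all genes) and 15 in replicate 2 (5.56%, against 3.79%), or 5.74% ± 0.262 (SD, n = 2). The 2 replicates had 12 of these genes in common out of 19 in either, against 484 of 1035 over all protein-coding genes.

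**Figure D1:**
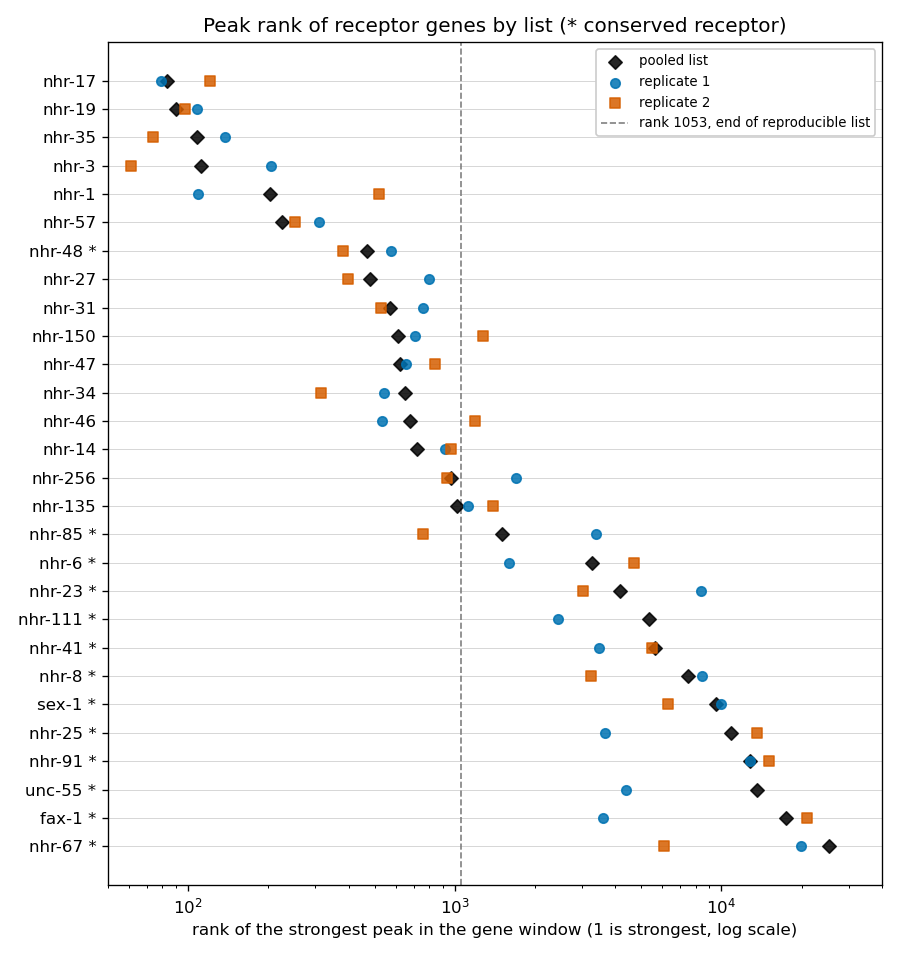
Rank of the strongest peak in the gene window (horizontal log axis, 1 is strongest) for the 16 receptor genes with a reproducible peak and the 12 other conserved receptors, in the pooled list (diamonds), replicate 1 (circles) and replicate 2 (squares). Among the strongest genes, the replicate ranks lie close together for nhr-17 (79 and 121) and nhr-19 (108 and 97). They lie further apart for nhr-3 (205 and 61) and nhr-1 (109 and 520). Ranks of conserved receptors other than nhr-48 lie mostly to the right of rank 1053. A missing symbol means no peak in that list.

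The strongest member peaks lay at genes of the expanded family. The peak in nhr-17 ranked 83 in the pooled list, 79 in replicate 1 and 121 in replicate 2, with a pooled signal of 287, where the median reproducible peak had 162. That of nhr-19 ranked 90, 108 and 97 in the same order, and that of nhr-3 ranked 112, 205 and 61. These 3 were intronic: the summits lay 2615 bp, 1896 bp and 1975 bp from the 5′ end (nhr-17 at X, 12665014 to 12665463; nhr-19 at II, 9603405 to 9603854; nhr-3 at X, 14560254 to 14560703, all positions in build ce11). The summit in nhr-17 fell on a tRNA gene (WBGene00009555) annotated inside the intron, so tRNA and receptor gene cannot be told apart there. No tRNA or snoRNA gene was nearer than 18785 bp to the nhr-19 summit or 49127 bp to the nhr-3 summit.

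At nhr-35 and nhr-1, both on chromosome X, strong peaks lay upstream of the gene. The nhr-35 peak had its summit 450 bp upstream and ranked 108, 137 and 74. The nhr-1 peak (X, 17513504 to 17513953) had its summit 334 bp upstream and ranked 203, 109 and 520. The nhr-1 site differed more between the replicates than the nhr-35 site, and it was among the 1053 strongest in each.

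An upstream peak was also found at nhr-57, a gene known as a target of the hypoxia factor HIF-1. The peak (V, 4131479 to 4131928) had its summit 185 bp upstream and ranked 225, 309 and 252. At nhr-14, an HNF4-related receptor gene with a known part in iron homeostasis, the summit was 222 bp upstream (X, 8476175 to 8476624), inside the annotated ncRNA gene T01B10.13. It ranked 723, 916 and 965. At nhr-47 the summit lay 10 bp upstream (V, 5505018 to 5505467), inside the ncRNA gene C24G6.10 and also in the promoter window of dnj-19, a DnaJ-family gene, with ranks of 623, 654 and 845. This was the 1 peak of the 16 whose summit lay in the window of another protein-coding gene.

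Further members had peaks inside the gene. The peak of nhr-31, an HNF4-related gene needed for growth of the excretory canal, lay in an intron 953 bp from the 5′ end and on the ncRNA gene C26B2.12 (IV, 8028335 to 8028784), and ranked 573, 757 and 530. In nhr-27, the longest member at 102756 bp, an intronic peak 48510 bp from the 5′ end (X, 12759583 to 12760032) ranked 480, 800 and 396. This gene held 42 relaxed peaks, against a median of 5.5 over the 16 genes. In nhr-150 the summit was in a coding exon, 19 bp from a tRNA gene (V, 15479850 to 15480299, ranks 611, 706 and 1274). A tRNA or snoRNA gene lay no more than 1000 bp from the summit at 2 of the 16 genes (12.5%), nhr-17 and nhr-150. Of all 1053 reproducible peaks, 283 were that near to one (26.9%).

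Support in the single replicates was weaker for 5 of the 16. At the pooled site, nhr-34 (IV, 9672463 to 9672912, intron) ranked 3480 in replicate 1 and 315 in replicate 2, and nhr-46 (IV, 5754050 to 5754499, intron) ranked 532 and 1193. In nhr-34 the strongest replicate 1 peak, ranked 541, lay elsewhere in the gene. The upstream peaks of nhr-256 (V, 1743395 to 1743844) and nhr-135 (V, 7093753 to 7094202) ranked 1700 and 936, and 1121 and 1386. With nhr-150, these were the members whose site was not among the 1053 strongest in both replicates. The other 11 were, which is 4.07% of all members, against 2.33% of all protein-coding genes by the same rule.

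The limit of the reproducible list falls in a run of members with nearly equal signal. Just inside it were nhr-14, nhr-256 and nhr-135, with pooled signals of 144, 129 and 126. Just outside were nhr-105 (rank 1072, signal 124), nhr-49 (rank 1137, signal 121) and nhr-40 (rank 1196, signal 119). The peak of nhr-49, which encodes a regulator of fatty acid oxidation and desaturation, lay upstream of the gene and ranked 1576 and 1183 in the replicates. With 2 times as many pooled peaks, 29 members carried a peak (10.7%), against 7.13% of all genes.

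Summits lay at the promoter in 8 of the 16 genes and in the gene body only in the other 8. By annotation 8 were upstream of the gene, 7 in an intron and 1 in a coding exon. Over all 749 protein-coding genes with a reproducible peak, 53.8% had the strongest summit in the promoter window, 34.4% in an intron and 9.88% in a coding exon. With the promoter window alone, 8 of 270 members (2.96%, interval 1.29 to 5.75%) carried a reproducible peak, against 2.06% of all genes. The replicates each gave 7 by that rule (2.59%), against 1.85% and 2.17% of all genes. They had 6 in common out of 8 in either, against 263 of 539 over all genes.

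**Figure D2:**
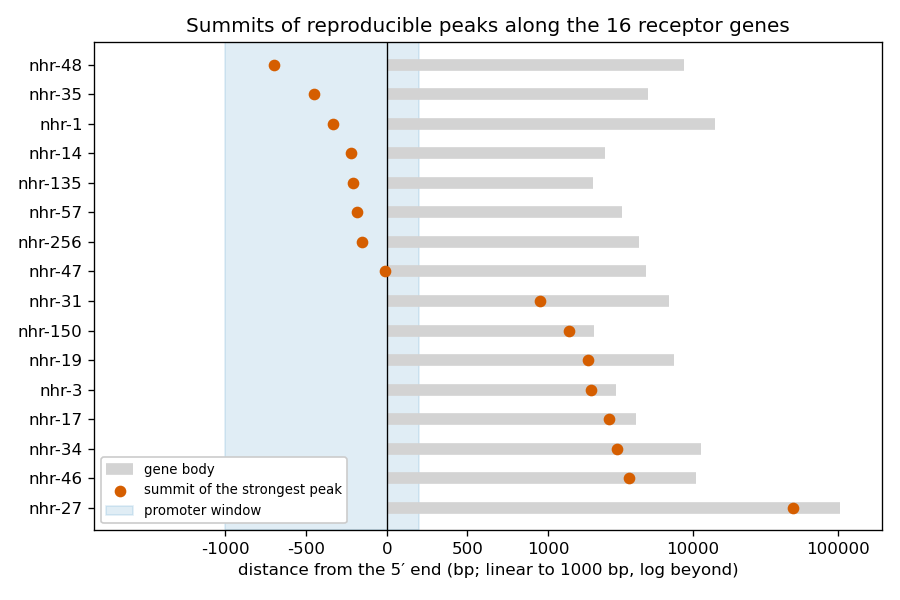
Position of the strongest summit relative to the 5′ end (horizontal axis in bp, linear to 1000 bp and logarithmic beyond) for the 16 receptor genes with a reproducible peak. Grey bars are gene bodies and the shaded band is the promoter window: 8 summits lie in the band and 8 lie further inside the gene, up to 48510 bp in nhr-27.

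The sequence at 4 summits is shown, for some of the kinds of place described above: promoters of expanded-family genes on chromosome X (nhr-1) and on an autosome (nhr-57), the promoter of the conserved receptor nhr-48, and the tRNA gene inside nhr-17. No intronic summit away from a tRNA gene is shown. Each run is 151 bp of the plus strand of the RefSeq genome WBcel235 (ce11) with the summit at its centre. Capitals mark CTCTC, the nuclear receptor half-site AGGTCA or the tRNA B box core GGTTCGA, on either strand. All 4 runs hold CTCTC, while those of nhr-3, nhr-31, nhr-34 and nhr-14, not printed, hold none of these motifs. The runs lie at chrX:17513654-17513804, chrV:4131629-4131779, chrX:15707439-15707589 and chrX:12665164-12665314.
nhr-1: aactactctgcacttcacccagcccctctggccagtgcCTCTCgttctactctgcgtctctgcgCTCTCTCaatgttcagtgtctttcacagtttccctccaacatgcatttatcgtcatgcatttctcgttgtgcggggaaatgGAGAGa
nhr-57: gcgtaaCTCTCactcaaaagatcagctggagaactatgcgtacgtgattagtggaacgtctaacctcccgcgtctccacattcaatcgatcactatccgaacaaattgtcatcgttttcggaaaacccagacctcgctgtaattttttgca
nhr-48: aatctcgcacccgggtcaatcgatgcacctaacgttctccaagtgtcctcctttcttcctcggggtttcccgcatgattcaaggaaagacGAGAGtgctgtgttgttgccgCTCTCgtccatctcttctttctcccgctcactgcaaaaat
nhr-17: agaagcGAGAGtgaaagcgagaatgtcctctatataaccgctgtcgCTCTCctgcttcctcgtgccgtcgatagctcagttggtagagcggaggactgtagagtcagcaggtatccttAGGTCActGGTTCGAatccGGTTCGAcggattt

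The half-site of nuclear receptors was found at few of these sites. Within 150 bp of the summit on each side, AGGTCA was found on either strand at 3 of the 16 member peaks (18.8%), against 8.45% of the 1053 reproducible peaks, 8.71% of the relaxed pooled peaks and 7.93% of windows of the same length centred on the 5′ ends of all protein-coding genes. The 3 were at nhr-17, nhr-57 and nhr-27; the copy at nhr-17 lies inside the tRNA gene, in the run printed above, and that at nhr-57 lies outside its run. Without the 2 peaks near tRNA genes, AGGTCA was at 2 of 14 (14.3%). The variant AAGTCA was at 0 of 16, against 11.6% of reproducible peaks, 13.2% of relaxed peaks and 14.1% of 5′ ends. The B box core GGTTCGA was at 1 of 16, which was nhr-17, against 14.7% of reproducible peaks, 3.37% of relaxed peaks and 1.62% of 5′ ends. Each motif was searched on its own, so matches of different motifs may overlap. CTCTC, a motif chosen after the sequences were seen, was at 13 of 16 (81.2%), against 64.4% of reproducible peaks, 44.6% of relaxed peaks and 39.2% of 5′ ends. The median GC content was 43.4% at member peaks and 43.5% at all reproducible peaks, and 35.5% at 5′ ends, whose windows were placed on genes and not on summits. A match is a run of letters and not a shown binding site.

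Among the conserved receptors, nhr-48 was the only one of 13 with a reproducible peak (7.69%, interval 0.195 to 36.03%). The receptor gene daf-12 falls outside the naming rule and was counted in neither class. It also had a reproducible peak, at pooled rank 640. The expanded family had 15 of 257 (5.84%, interval 3.30 to 9.44%). The interval of the conserved set is wide enough to hold the share of the expanded family and that of all genes. With each replicate alone, the conserved set had 1 in replicate 1 and 2 in replicate 2 (11.5% ± 5.44, SD, n = 2), and the expanded family 15 and 13 (5.45% ± 0.550, SD, n = 2). The shares of all protein-coding genes were 3.82% in replicate 1 and 3.79% in replicate 2. The difference between the classes was 1.86 percentage points, smaller than the SD of 5.99 points that the same difference had over the replicates.

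nhr-48 is a relative of the steroid-type receptor DAF-12. Its peak (X, 15707289 to 15707738) had its summit 699 bp upstream of the 5′ end, with no annotated RNA gene or pseudogene nearer than 10944 bp, and ranked 469 in the pooled list, 575 in replicate 1 and 380 in replicate 2. The next conserved gene was nhr-85, a relative of insect E75 and of Rev-erb. An intronic peak 1576 bp from its 5′ end ranked 1505 in the pooled list, 758 in replicate 2 and 7022 in replicate 1, so that nhr-85 was called from replicate 2 alone. The strongest replicate 1 peak in this gene was another one, at rank 3395.

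The other 11 conserved receptors ranked between 3263 and 25299 in the pooled list. nhr-23, the relative of insect DHR3 and vertebrate ROR that drives molting, had an intronic peak at rank 4156, with 8365 and 3032 in the replicates. nhr-25, the FTZ-F1 relative, had an upstream peak, on the ncRNA gene F11C1.12, at rank 10827, with 3664 and 13619. For sex-1, which helps to count X chromosomes in sex determination, the ranks were 9540, 9980 and 6317. Those of fax-1, which specifies interneuron fates, were 17416, 3585 and 20893. For fax-1 the replicate ranks belong to other peaks in the window. At its pooled site replicate 1 ranked 6715 and replicate 2 had no peak. The strongest of the ranks of these 4 genes was 3032, outside the 1053 strongest peaks of any list. The q-value that the authors' caller gave was 0.0196 at nhr-85, 0.235 at nhr-23 and 0.554 at nhr-25, against 0.000711 at nhr-48.

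Weak peaks were common at conserved receptors, and these genes are long. All 13 had a relaxed pooled peak in the window, as did 146 of the 257 expanded genes (56.8%) and 58.9% of all protein-coding genes. Median gene length was 5191 bp for the conserved set, 2261 bp for the expanded family and 2027 bp for all genes. In the promoter window, whose size does not depend on gene length, 9 of 13 conserved receptors (69.2%) and 79 of 257 expanded genes (30.7%) had a relaxed pooled peak, against 30.8% of all genes. In replicate 1 the counts by promoter were 6 of 13 conserved and 76 of 257 expanded genes, against 30.0% of all genes. In replicate 2 they were 7 and 80, against 32.1%. The median pooled rank of those promoter peaks was 12279 for the conserved set, 14904 for the expanded family and 12619 for all genes. In replicate 1 these medians were 8975, 14784 and 13320, and in replicate 2 they were 13619, 9916 and 12843, so the order of the classes was not the same in the replicates. In the full window the conserved median was the stronger in each list: 7508 against 14649 for the expanded family in the pooled list, 3664 against 10642 in replicate 1 and 5494 against 9567 in replicate 2. The conserved genes had a median of 3 relaxed pooled peaks in the window and the expanded genes 1. The pooled site was matched by a peak in both replicates at 6 of 13 conserved and 75 of 146 expanded genes, against 63.4% of all genes with a relaxed peak.

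**Figure D3:**
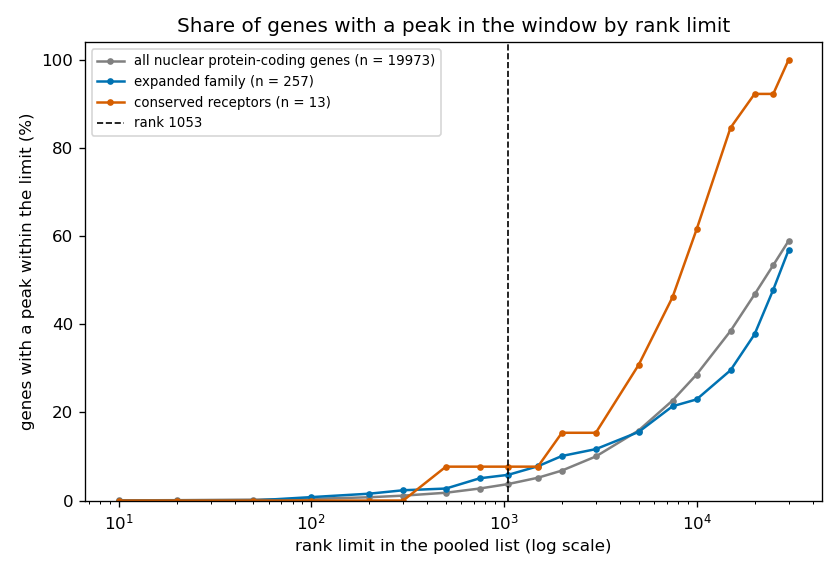
Share of genes with a pooled peak in the window (vertical axis, %) as the rank limit is raised (horizontal log axis), for the 13 conserved receptors, the 257 expanded-family genes and all 19973 protein-coding genes. At rank 1053 the shares are 7.69%, 5.84% and 3.75%, and at rank 30000 they are 100%, 56.8% and 58.9%.

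By known role, receptors of molting, neuron identity and metabolism gave 1 reproducible peak among them. None of 6 receptors of molting and larval timing (nhr-23, nhr-25, nhr-41, nhr-67, nhr-85, nhr-91) had a reproducible peak, and their pooled ranks ran from 1505 to 25299. Of 6 genes of neuron and cell identity (odr-7, unc-55, fax-1, nhr-67, nhr-6, nhr-2) none did either, with ranks of 3263 to 27745. The weakest was odr-7, which specifies the AWA olfactory neuron, and it had no peak in replicate 1. With lists this short, 0 of 6 does not separate them from the 3.75% of all genes.

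Of 10 receptors of lipid, metal and energy metabolism, nhr-14 alone had a reproducible peak, against 3.75% of all protein-coding genes, so 1 of 10 is no more than a description of these genes. nhr-49 and nhr-66, whose proteins act together in lipid metabolism, ranked 1137 and 1278. nhr-64, nhr-62, nhr-76, nhr-69 and nhr-8 ranked 3220, 3992, 4373, 5342 and 7508. nhr-80, a regulator of fatty acid desaturases, ranked 11755, and nhr-13 ranked 18501 with no peak in replicate 2. Of 3 receptors of environmental response, nhr-57 carried a reproducible peak, nhr-8 did not, and nhr-86, which responds to bacterial metabolites, had no peak in any of the 3 lists; 1 of 3 is likewise too few to set against the 3.75%.

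Genes that work with nuclear receptors, none of them members, gave 3 of 9 with a reproducible peak, against 3.75% of all protein-coding genes. The 3 are long genes (cbp-1 8317 bp, din-1 18840 bp, daf-12 30968 bp), and of all genes of at least 5000 bp 8.44% carried one. In the promoter window, 2 of the 9 had one (cbp-1 and din-1), against 2.06% of all genes. The coactivator gene cbp-1 ranked 24, 15 and 40 in the pooled list and the replicates, with the summit 861 bp upstream. din-1, which encodes a corepressor of DAF-12, ranked 503, 258 and 1011, with the summit 673 bp upstream and on the ncRNA gene ZK20.8. This summit lay 943 bp from the snoRNA gene ZK20.9. The receptor gene daf-12 had an intronic peak at 640, 495 and 1197 (X, 10637377 to 10637826). The gei-8 gene had a peak in a coding exon at rank 1199, and the transgene carries gei-8 sequence of its own. Of the hormone synthesis genes, hsd-1 ranked 2228 and daf-9 28118, and daf-36 and dhs-16 had no peak. mdt-15, a Mediator subunit gene, ranked 11401.

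Members on chromosome X carried a reproducible peak more often than X genes in general, while the share of autosomal members was near that of autosomal genes. Chromosome X holds 26 members, of which 7 carried a reproducible peak (26.9%, interval 11.6 to 47.8%), against 4.94% of all protein-coding genes on X. They were nhr-17, nhr-35, nhr-3, nhr-1, nhr-48, nhr-27 and nhr-14. The autosomes hold 244 members with 9 such genes (3.69%, interval 1.70 to 6.89%), against 3.56% of all autosomal genes. Chromosome V, with 165 members, had 5 (3.03%), against 2.46% of all V genes. Chromosome I had 0 of 24, against 4.10% of its genes, and chromosome III 0 of 7, against 5.30%, counts too small to differ visibly from those shares. The split by chromosome was made after the values were seen, and no test of it was run.

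The count on X was 7 in replicate 1 and 8 in replicate 2, where nhr-40 was added. Members on X are longer than members elsewhere, with medians of 4207 bp and 2247 bp. By the promoter window, 4 of 26 members on X had a reproducible peak (15.4%), against 2.31% of X genes. Among members on X of at least 5000 bp, 3 of 8 had a peak in the full window, against 11.2% of X genes of that length. Among the shorter ones, 4 of 18 had one (22.2%), against 3.28%. These counts are small, and the median length was 4207 bp for members on X against 2548 bp for all X genes. The part of length in the share on X was not tested. Over all chromosomes, 7 of 38 members of at least 5000 bp had a peak (18.4%, against 8.44% of all such genes) and 9 of 232 shorter ones (3.88%, against 2.84%).

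**Figure D4:**
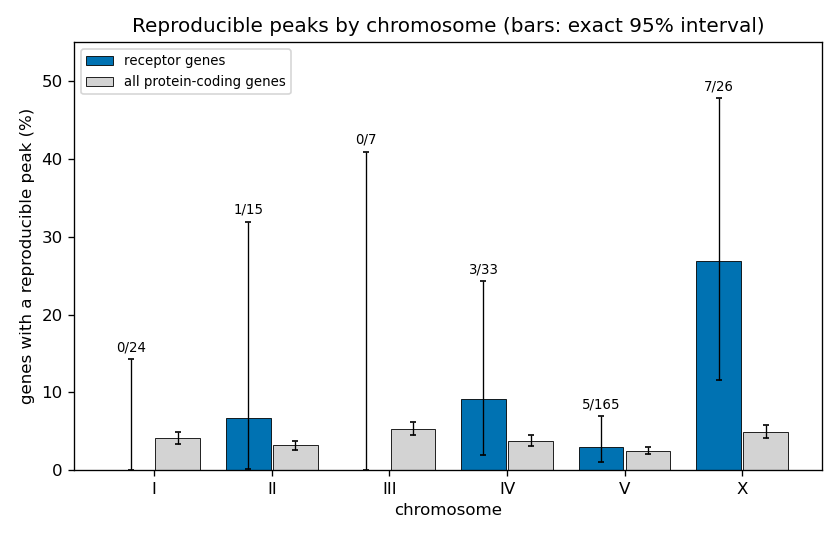
Share of genes with a reproducible peak (vertical axis, %) by chromosome, for the receptor genes (dark bars, with counts above) and all protein-coding genes (light bars). Lines are exact 95% intervals; the receptor share on X is 26.9% against 4.94% of X genes, and on V it is 3.03%.

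Receptor genes in tandem clusters had 1 reproducible peak, a split made after the values were seen and not tested. With members joined when no more than 10000 bp lay between them, 22 clusters of 3 or more genes were formed, 42 members were in pairs, and 113 stood alone. A reproducible peak lay at 1 of the 115 genes in the 22 clusters (0.870%), which was nhr-27. One also lay at 1 of the 42 paired genes (2.38%) and at 14 of the 113 lone genes (12.4%). Over all protein-coding genes the share was 3.75%. The largest cluster, 12 genes from nhr-123 to nhr-131 on chromosome V (451451 to 497297), had a best rank of 3445, at nhr-203. A cluster of 9 genes from nhr-133 to nhr-96 (V, 2210510 to 2235180), the same size as a pair of others, had a best rank of 12390. Those others, nhr-182 to nhr-226 and nhr-185 to nhr-124, had best ranks of 7136 and 4728.

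Lone members were longer than clustered ones (medians 3286 bp and 2101 bp). They were also the larger part of the members on X: 20 of 26, with 6 carrying a peak (30.0%), against 4.94% of all X genes. On the autosomes 8 of 93 lone genes (8.60%) and 1 of 151 others (0.662%) carried one, against 3.56% of all autosomal genes. Members with a relaxed pooled peak made up 73.5% of lone genes and 47.8% of clustered genes, against 58.9% of all protein-coding genes. Tandem copies can share sequence, and the sources used here do not say how reads with several matches were treated, so lower coverage over clusters and less binding cannot be told apart. Length, chromosome and clustering go together among these genes, and their parts in the shares were not tested separately.

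The order of members by rank was moderately alike in both replicates. Across the 113 members with a peak in both replicate lists, Spearman's rho of the ranks was 0.63, as a description over genes that share libraries and a control. Over all 9378 protein-coding genes with peaks in both, it was 0.49. Each rank is that of the strongest peak in the window, which may be a different site in each replicate. The pooled site was matched in both replicates at 81 of 159 members with a pooled peak (50.9%), against 63.4% of all such genes. A further 44 members had a peak in replicate 1 only, 42 in replicate 2 only and 71 in neither.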

How the data were processed

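Peak lists of GEI-8 chromatin immunoprecipitation from 2 biological replicates in 1 group were used. The deposited descriptions name 1 control alignment for all lists, in assembly ce11, after sonication to 200 to 800 bp. No aligner or peak caller is named in the sources used here. The deposited peak signal, on the authors' own scale, was used for ranks and, within the pooled list, as a level. The deposited −log10 q-value was turned into a q-value for a few peaks. The depth of the libraries is unknown.

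Summits came from the deposited offset. Genes were those of Ensembl WBcel235, the same assembly as ce11, coordinates are 1-based, and sequence came from RefSeq WBcel235. The sequence and position of 1 member peak are not reported here. Every peak lay within the chromosome lengths of that genome. Joins of peaks to genes were tested on simulated data. No test between groups was possible. Percentages over all 19973 nuclear protein-coding genes serve as background. Replicate lists were cut at 1053 peaks to match the reproducible list.

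Members, classes, role lists and the rule for named genes (members with a reproducible peak, conserved receptors, the 10 strongest, role lists, those nearest the limit and the largest clusters) were chosen with earlier results of these data known. Splits by chromosome, length and clustering, and the CTCTC motif, were added after the values were seen. Alternatives changed the number of peaks, the window, the overlap (at least 1 bp of the whole peak), the replicates, the assignment of peaks, peaks near RNA genes and the class list. Scripts ran in Python 3.11.15 (pandas 2.3.3, numpy 2.4.6, scipy 1.17.1), with figures from matplotlib 3.10.9.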

Additional observations from a re-analysis of the deposited data

How the results depend on the processing

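The number of members with a reproducible peak followed the number of peaks and the window. It was 8 with the stronger 50% of the peaks, 29 with 2 times as many, 8 with the promoter window alone and 7 with a promoter of 500 bp upstream to 100 bp downstream, against 1.88%, 7.13%, 2.06% and 1.34% of all protein-coding genes, so the background moved with the setting. The expanded family gave 7, 27, 7 and 7 in these settings, and the conserved set 2 with 2 times as many peaks and 0 with the narrow promoter. With the narrow promoter the conserved share was below that of the expanded family, by -2.72 points. Counting nhr-14, nhr-49, nhr-64 and nhr-69 as conserved gave that set 2. With 1 replicate left out, members ranged from 15 to 16, conserved from 1 to 2, expanded from 13 to 15, and the class difference from 1.86 to 10.3 points. The median rank, 12390 over members with a peak, was 14137 for promoters and 9347 to 10433 in single replicates. The wider upstream window, whole-peak overlap, peaks strong in both replicates, each peak given to 1 gene and the removal of peaks near tRNA or snoRNA genes gave 17, 17, 11, 13 and 14 members, against 4.74%, 4.51%, 2.33%, 2.81% and 2.77% of all genes. The rank of a named gene moved by more than its spread between replicates in 45 of 189 comparisons. Of the 45, 14 came from leaving out replicate 1 and 15 from leaving out replicate 2. There the new rank is itself 1 of the 2 ranks that set the spread, so these moves do not measure the processing. The 189 comparisons leave out 4 named genes with a rank in only 1 replicate and so no spread. Named genes with no peak under a setting are left out too and not counted as moved. The promoter window had 26 comparisons and the narrow promoter 19, against 36 for each other setting. No paired analysis was possible because all samples belong to 1 group. Unknown depth limits what a missing peak means.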

Other observations

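Receptor genes with a low number in their symbol carried most of the peaks, a split made after the values were seen and not tested. Of the 92 members numbered under 100, 13 had a reproducible peak (14.1%), and of the 174 with higher numbers, 3 did (1.72%), which were nhr-150, nhr-256 and nhr-135, against 3.75% of all protein-coding genes. In replicate 1 the counts were 14 and 2, and in replicate 2 they were 14 and 1, against 3.82% and 3.79% of all genes. The low-numbered genes are longer (medians 3308 bp and 2079 bp). Among lone genes, outside pairs and clusters, 12 of 56 with low numbers and 2 of 53 with higher numbers had a peak. On chromosome X, 7 of the 15 low-numbered members did, against 4.94% of all X genes, and on the autosomes 6 of 77, against 3.56%.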
